A study of Drosophila melanogaster with 2 samples.

Results

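The X chromosome peaks described here are all entries on the X in the authors' dm6 list of binding sites for Ftz-F1, a fly nuclear receptor of the orphan class. There were 544 of them among 3960 peaks, and the 3416 peaks on 2L, 2R, 3L, 3R and 4 are called autosomal. The list came from chromatin immunoprecipitation sequencing of whole Drosophila melanogaster embryos aged 0 to 24 hours. The embryos came from a transgenic line that makes Ftz-F1 with green fluorescent protein fused to its C-terminus, and an antibody against that protein pulled down the chromatin. The series has 1 group with 2 biological replicates, numbered 1 and 4, which share the line, stage and tag. No second condition exists, so every comparison is between peaks of the X and peaks of the other arms. The labels do not say whether the replicates came from separate fly cultures. The embryos were a mix of males, which carry a single X, and females, which carry a pair, so the number of X copies in the chromatin and the calling of X peaks cannot be told apart. Peak lists hold no expression values, so the tissue was not checked against marker genes.

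Ftz-F1 is known for binding DNA as a single molecule at an extended half-site that ends in AGGTCA, for partnering the segmentation protein Fushi tarazu, and for making tissues competent to respond to the hormone ecdysone. The fly X is known for dosage compensation, in which the MSL complex, with its RNAs roX1 and roX2, raises transcription from the single X of males. That complex is known to enter the X at GA-rich sites. The list itself was made by the authors with the irreproducible discovery rate (IDR), a measure of how well peak ranks repeat from one replicate to the next. Each peak's signal value was set by the authors on an unstated scale, and it serves here to rank and describe peaks within 1 list. Shares of peaks carry 95% Wilson intervals, which cover counting error only. Read depth is unknown from peak lists. Peaks are not replicates, so p-values describe these lists.

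The sequences below show 4 kinds of site at X summits, each with 16 bases on either side and the matched letters in capitals. The 6 strongest X peaks with the Ftz-F1 site CAAGGTCA within 100 bp of the summit are given first, in order of signal value. They are followed by the strongest X peak of all, in kirre, by both promoter elements at wapl, and by GA repeats at Hex-A and if. The kirre stretch matches only the first 7 letters, CAAGGTC, and lacks the A that ends the half-site. How often this shorter match occurs elsewhere was not counted. All were read from the release 6 reference, which shares the dm6 coordinates, on the strand where the motif reads forward.
Gs2 intron, chrX:11427520-11427559, plus strand: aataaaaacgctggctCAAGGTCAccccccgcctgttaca
upstream of LPCAT, chrX:9580704-9580743, minus strand: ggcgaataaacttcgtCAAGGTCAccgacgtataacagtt
HDAC4 intron, chrX:13278553-13278592, plus strand: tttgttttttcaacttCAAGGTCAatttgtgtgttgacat
CG5004 promoter, chrX:17125409-17125448, plus strand: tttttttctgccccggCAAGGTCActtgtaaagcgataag
CG15249 intron, chrX:9897782-9897821, plus strand: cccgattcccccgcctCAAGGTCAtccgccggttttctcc
stas exon, chrX:17625401-17625440, plus strand: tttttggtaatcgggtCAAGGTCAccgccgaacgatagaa
kirre, chrX:2790320-2790358, plus strand: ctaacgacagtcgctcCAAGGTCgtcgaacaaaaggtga
wapl promoter, TATCGATA, chrX:2158976-2159015, plus strand: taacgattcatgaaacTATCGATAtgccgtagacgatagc
wapl promoter, GGTCACACT, chrX:2159080-2159120, minus strand: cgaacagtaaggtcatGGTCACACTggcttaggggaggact
Hex-A promoter, chrX:9585769-9585806, plus strand: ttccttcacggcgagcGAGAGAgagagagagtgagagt
if intron, chrX:16780443-16780480, minus strand: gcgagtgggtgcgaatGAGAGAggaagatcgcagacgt

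The 20 strongest X peaks had signal values of 410 to 1005 and lay mostly at promoters. A promoter is here any position within 500 bp of a transcript start. By that rule 13 of the 20 summits were in promoters, 6 in introns and 1 between genes. They ranked 18 to 293 in replicate 1 and 15 to 288 in replicate 4. None held CAAGGTCA, which was found at 4.78% of all X summits. GAGAGA, found at 18.8% of all X summits, was at 7 of the 20.

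The strongest X peak had its summit at X 2790317, inside the bodies of kirre, a gene of myoblast fusion, and of CG32795, 250 bp downstream of a CG32795 start. Its signal value was 7.65 times the list median of 131, and it held rank 18 in each replicate. The next was the promoter of Ugalt, which encodes a transporter of UDP-galactose (X 2703874, signal value 841, ranks 59 and 15 in replicates 1 and 4). A promoter peak of CG8128 followed (X 15697900, 833, ranks 21 and 45). Both replicates thus placed these 3 peaks among their strongest 60.

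The juvenile hormone receptor gene gce (FBgn0261703) held the fourth of the X peaks, 307 bp upstream of a start at X 15298702, where the signal value was 752 and the ranks were 49 and 30. Its paralog Met (FBgn0002723), the other juvenile hormone receptor gene, held a promoter peak at X 11616579 where they were 377, 85 and 470. The gene next to gce, Top1, which encodes DNA topoisomerase I, held a promoter peak at X 15323408 (667, ranks 82 and 32).

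Peaks at or near genes of basic metabolism and transport also stood among the 20. Hex-A, which encodes hexokinase, had a summit 94 bp downstream of its start (X 9585769, 612, ranks 93 and 44). The only intergenic peak of the 20 lay 4133 bp from the start of the purine synthesis gene Paics (X 12756484, 682, ranks 48 and 46). It was outside the body of Paics and the 2000 bp upstream, and which gene it acts on was not tested. Efr, a sugar-nucleotide transporter gene (X 6220138, 602), and MFS10, of the major facilitator family (X 13131330, 410), had promoter peaks.

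Further promoter peaks of the 20 lay at Mnr (X 21281284, 692), at wapl, whose product releases cohesin (X 2159080, 587), at bbx, which shares its annotated span with waw (X 21368497, 487), at the autophagy gene Rubicon (X 8676969, 438) and at CG5273 (X 759508, 412). The wapl promoter held both TATCGATA, the element of the promoter factor DREF, and GGTCACACT, the element of M1BP, as printed above. Just before GGTCACACT the printed stretch also reads AAGGTCA, the Ftz-F1 site without its first C, in small letters. That shorter motif was found at 6.80% of X and 7.06% of autosomal summits. Intron peaks lay in CG32772 (593), CG3726 (427), the kinase gene Tlk (431 and 422) and the integrin gene if (464 and 413). Both if summits and both Tlk summits had GAGAGA within 100 bp.

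X peaks were weaker in rank than autosomal peaks by a small margin. The median signal value was 127 on the X (quartiles 106 and 173, range 91.8 to 1005) and 132 on the autosomes (108 and 185, up to 3557). Of the X peaks, 247 of 544 (45.4%) were above the list median, against 50.7% of autosomal peaks (odds ratio 0.808, Fisher's exact test, two-sided here and below, p = 0.0236). The long autosomal arms had medians of 128 to 134 and 48.7% to 52.1% of peaks above the list median, so the X lay just below arm 2L. In the strongest 1980 peaks of the list the direction turned (odds ratio 1.05). With replicate 4 left out the difference did not pass (odds ratio 0.899, Fisher's exact p = 0.29). With 1 X and 4 long autosomal arms, an exact test over arms cannot give a p below 0.2.

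On the X the authors' list amounted to a cut by signal value in the pooled list made from both replicates. Its weakest X peak had pooled rank 3960, and the strongest X peak outside it had 3962. Values on each side of the threshold were therefore bound to lie close together. The weakest X peaks inside it were a promoter peak of CG8051 at 91.81 and an intergenic peak near RpS15Aa at 91.83. The strongest pooled X peaks outside it were an intron peak of CG43658 at 91.79 and a promoter peak of if at 91.59.

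The X peaks had lower standing than autosomal peaks in both replicates by median rank, by more in replicate 1. Each peak was given the rank of the strongest overlapping peak among the 30000 entries of a replicate. In replicate 1 the median rank was 2148 on the X and 1815 on the autosomes. In replicate 4 the medians were 1970 and 1836. Both X medians lay outside the range of the long autosomal arms, which was 1795 to 1848 in replicate 1 and 1785 to 1925 in replicate 4. Of the 540 X peaks found in both replicates, 233 (43.1%) ranked higher in replicate 1, against 50.6% of 3405 autosomal peaks (odds ratio 0.741, Fisher's exact p = 0.00138). The 4 long autosomal arms lay between 49.5% and 51.2%, so the X stood outside their range. Neighbouring peaks of the list can overlap the same replicate peak and then share its rank, as an exon peak of CG8128 at X 15698117 shared ranks 21 and 45 with the promoter peak of that gene.

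The replicates were also compared by their strongest 3960 peaks, a comparison chosen after the values were seen. Of the X peaks, 425 (78.1%, 74.5 to 81.4) were among the strongest of replicate 1, against 85.0% of autosomal peaks (odds ratio 0.633, adjusted Fisher's exact p = 0.000456). For replicate 4 the shares were 85.5% and 84.5% (adjusted Fisher's exact p = 0.609). Both replicates together ranked 353 X peaks (64.9%) among their strongest, against 70.5% (adjusted Fisher's exact p = 0.0129). Between replicates the ranks correlated with Spearman rho 0.481 over 540 X peaks and 0.545 over the autosomal ones, given as a description of peaks that share the 2 libraries. Promoter peaks of the X had median ranks of 2308 in replicate 1 and 1936 in replicate 4, where autosomal ones had 1803 and 1795. Intron peaks had 2027 and 2018 on the X, and 1850 and 2025.5 on the autosomes. Exon peaks went the other way, since 17 of 28 on the X (60.7%) ranked higher in replicate 1, against 34.7% on the autosomes. These values by place were not tested. Whether the sex ratio, depth or handling of the replicates differed was not tested.

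**Figure D1:**
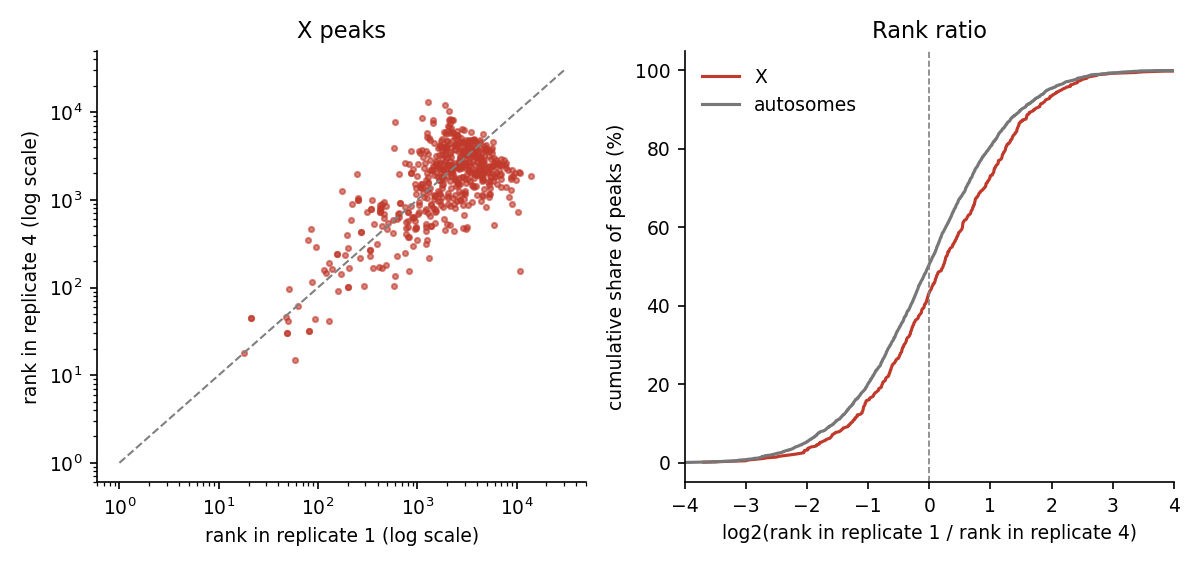
Ranks of peaks in the 2 replicates, where 1 is the strongest. Left, each point is an X peak, with rank in replicate 1 across and in replicate 4 upwards on log scales and the dashed line at equal ranks. Right, the cumulative share of peaks (%) by log2 of the rank in replicate 1 over that in replicate 4, with a median of 0.23 on the X and -0.02 on the autosomes.

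X peaks lay mainly at promoters, in a share like the lowest among the 4 long autosomal arms. Of 544 summits, 309 (56.8%, 52.6 to 60.9) were in promoters, 28 (5.15%, 3.58 to 7.34) in exons away from promoters, 173 (31.8%, 28.0 to 35.8) in introns and 34 (6.25%, 4.51 to 8.61) between genes. The autosomal shares were 61.7%, 3.63%, 26.9% and 7.85%. None of the 4 differences passed the adjusted threshold of 0.05 (promoter odds ratio 0.818 and intron odds ratio 1.27, both with adjusted Fisher's exact p = 0.0664, exon p = 0.123, intergenic p = 0.223). Arm 3L had 56.8% of its peaks at promoters and 2R had 66.6%, so the X promoter share was within the range of the long arms. Its intron share was above theirs, which ran from 23.6% to 29.6%. With a promoter window of 250 bp both calls were made (promoter odds ratio 0.750, adjusted Fisher's exact p = 0.00777, intron odds ratio 1.25, adjusted p = 0.0444).

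Within gene bodies, 371 of the X peaks lay in a protein-coding gene, 9 in a non-coding gene alone and 164 in none. The strongest intergenic peaks after the one near Paics were near the histone gene His3.3B (X 9152253, signal value 404) and near Gga, which acts in Golgi sorting (X 9600133, 371). The strongest exon peak lay in bif (X 11681833, 366).

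Peak density on the X was lower per base of promoter and of intron. The X held 104 promoter peaks per Mb of promoter sequence, against 129 to 149 on the long autosomal arms. It held 12.8% of the promoter peaks for 16.4% of the promoter sequence (0.782-fold, two-sided exact binomial test, adjusted p = 2.5e-06). In introns it held 15.9% of the peaks for 19.3% of the sequence (0.820-fold, adjusted exact p = 0.00472), or 17.0 per Mb against 20.4 to 24.3. Intergenic peaks (0.778-fold, adjusted exact p = 0.12) did not pass. They passed with replicate 4 left out (0.591-fold, adjusted exact p = 0.00246) and with a promoter window of 1000 bp (0.567-fold, adjusted exact p = 0.0066). Counted against starts, the X had 7.91 promoter peaks per 100 distinct starts and the long arms 9.77 to 11.6. Leaving out X sequence beyond 21 Mb, which is poor in genes and peaks, gave 0.791-fold for promoters, 0.848-fold for introns and 0.997-fold for intergenic sequence, an alternative chosen after the values were seen.

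**Figure D2:**
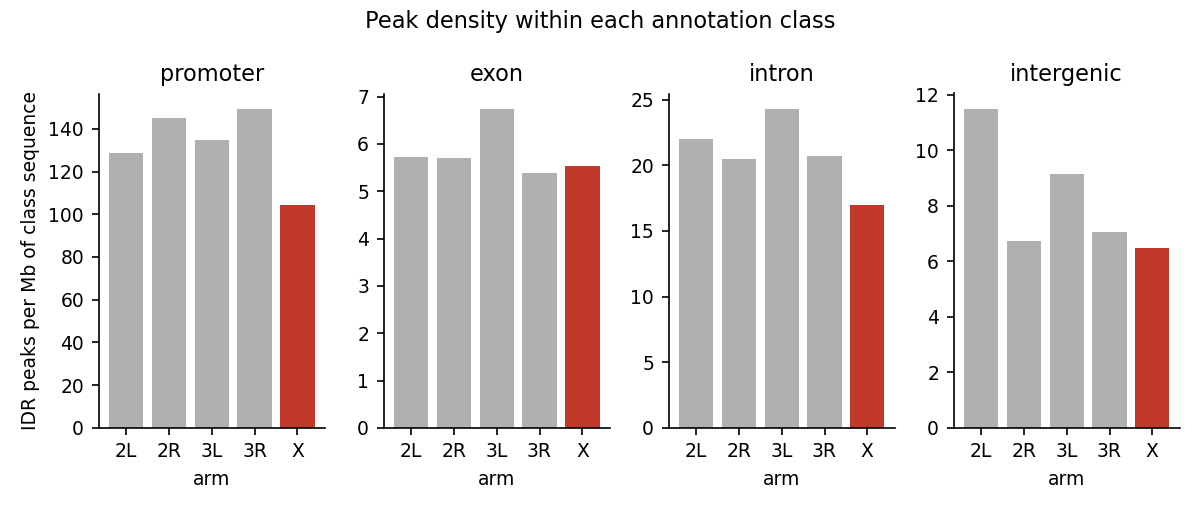
Peaks of the IDR list per Mb of sequence of each annotation class, 1 panel per class, by chromosome arm, with the X in red and axes starting at 0. In promoters the X bar stands at 104 and the 4 long autosomal arms at 129 to 149. Chromosome 4, with 4 promoter peaks or 27.6 per Mb, is not drawn.

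Promoters of the X were not short of weaker peaks. The pooled list holds 30000 entries, and those that are outside the IDR list are called sub-threshold. The X had 555 sub-threshold promoter peaks per Mb of promoter sequence and the autosomes 504. Of the pooled promoter peaks, 15.8% on the X were in the IDR list, against 21.6% on the autosomes (odds ratio 0.681, adjusted Fisher's exact p = 9.82e-09). The long arms lay between 20.9% and 22.5%. In introns the shares were 8.70% and 10.7% (odds ratio 0.793, adjusted Fisher's exact p = 0.0105). Between genes they were 8.13% and 10.03%, which did not pass (adjusted Fisher's exact p = 0.25). Since the list followed pooled signal value, these shares, the densities above and the pooled X shares by rank below restate the same ranking.

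The X share of peaks was lower among strong peaks than among weak ones in each list. Among the strongest 500 pooled peaks 57 were on the X (11.4%, 8.90 to 14.5). It was 15.1% in ranks 2001 to 3960 and 19.4% in ranks 20001 to 30000, where the X makes up 17.6% of the analysed sequence. Promoter peaks alone did not follow this at the very top. The X held 17.9% of the 56 in pooled ranks 1 to 100, 10.4% of the 230 in ranks 101 to 500 and 18.4% in ranks 20001 to 30000. Of promoter peaks in ranks 1 to 100 it held 23.6% in replicate 1 and 15.5% in replicate 4. In replicate 1 the X share of all peaks was lowest, at 8.80%, in ranks 501 to 1000 (6.62 to 11.6), and it was 13.1% in ranks 2001 to 3960. In replicate 4 it was 14.4% (11.6 to 17.7) and 16.1%. The strongest 3960 held 495 X peaks in replicate 1 (12.5%) and 584 in replicate 4 (14.7%). In the older build dm3 the authors' IDR list had 688 of 4902 peaks on the X (14.0%).

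**Figure D3:**
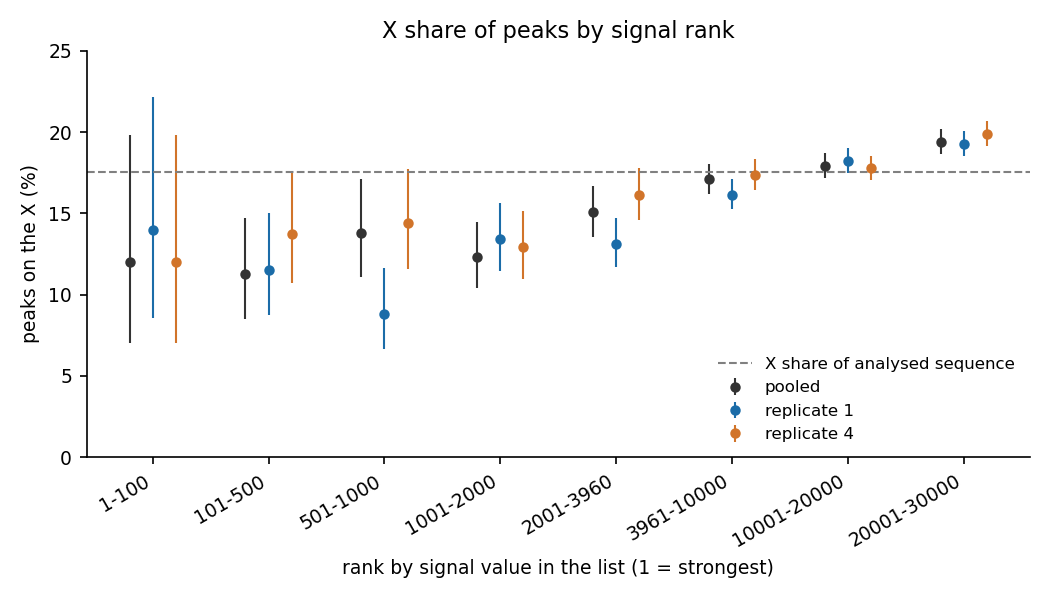
Share of peaks on the X (%) in bins of signal rank, for the pooled list and each replicate, with 95% Wilson intervals, and a dashed line at the X share of analysed sequence, 17.6%. All points for ranks 1 to 3960 lie below the line, and those for ranks 20001 to 30000 lie above it.

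Along the X the peaks followed the genes. Over 23 bins of 1 Mb the count ran from 3 to 49 with a median of 25, compared with a median of 34 in 109 autosomal bins. The richest bin, from 2 to 3 Mb, held 49 peaks, 30 of them at promoters, and 228 distinct starts, and it contains the kirre, Ugalt, wapl and Raf peaks. Counts per bin had a Spearman rho of 0.77 with the number of starts and 0.894 with the number of sub-threshold peaks, as a description over 23 bins of 1 chromosome. The bin from 14 to 15 Mb was poor in peaks for its genes, with 5 peaks for 88 protein-coding genes and 130 starts. The bin from 3 to 4 Mb was the reverse, with 28 peaks for 112 starts, 18 of them in introns.

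Beyond 21 Mb the X held 21 peaks in 2.48 Mb of known sequence, or 8.48 per Mb, against 24.9 per Mb before it. Of these, 7 lay in the bbx and waw locus alone. Per 100 starts the values were 8.86 and 14.3. The longest stretch without an X peak, 1064 kb from X 21369544 in bbx to X 22433090, contained 38 protein-coding genes and 15 pooled peaks below the threshold. The next, 588 kb from X 14238243 near Dus2 to X 14826152 at rut, an adenylyl cyclase gene, contained 31 genes. A further one of 571 kb from X 19866080 to X 20437095 contained 66. Neighbouring X summits were a median of 13112 bp apart and autosomal ones 8534 bp, and 19.0% of X gaps were 2000 bp or less, against 22.8%.

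**Figure D4:**
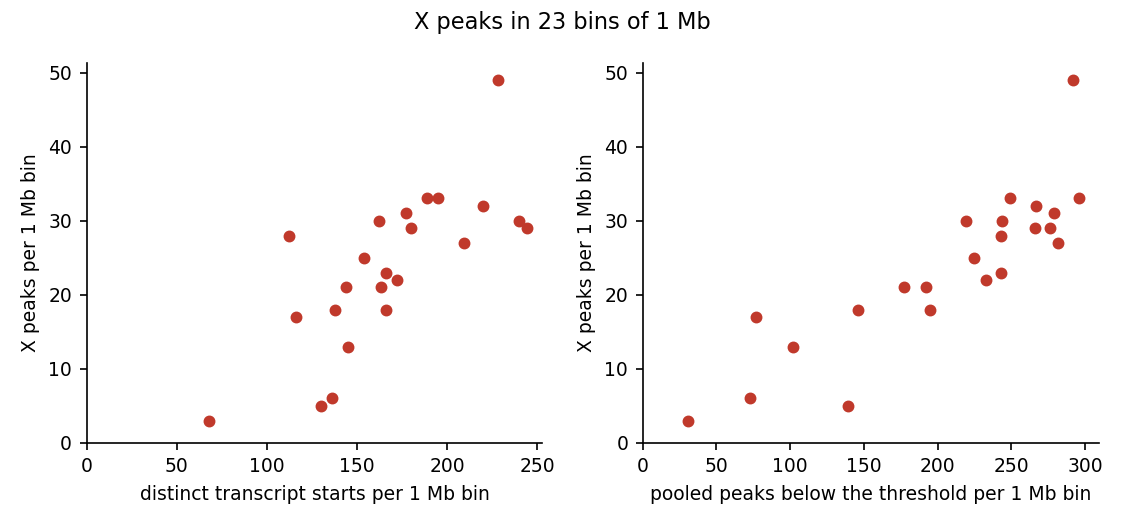
X peaks of the IDR list in 23 bins of 1 Mb (upwards) against distinct transcript starts (left) and against pooled peaks below the threshold (right) in the same bin. Each point is 1 bin, and counts run from 3 to 49 peaks.

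Fewer X genes held a peak than autosomal genes. A protein-coding gene held a peak when its body, or the 2000 bp upstream of it, contained a summit. This was so for 508 of 2196 X genes (23.1%) and 26.6% of autosomal genes (odds ratio 0.830, Fisher's exact p = 0.000633), with 26.1% over all arms. The long arms ranged from 25.3% to 27.6%. X genes were longer, with a median of 2521 bp against 2102 bp, and longer genes held peaks more often. In each quartile of gene length the X share was the lower one, at 6.77% against 12.1% in the shortest genes, 17.6% against 21.7%, 21.3% against 29.8%, and 40.5% against 44.0% in the longest. The intervals overlapped in the second and the longest quartile. Counting gene bodies alone, the difference did not pass (odds ratio 0.873, Fisher's exact p = 0.0611), nor did it with replicate 1 left out (0.914, p = 0.0973).

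**Figure D5:**
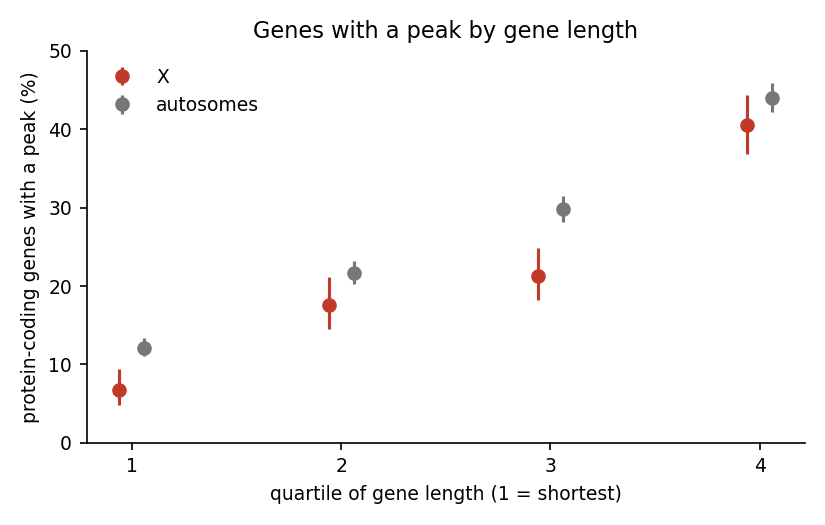
Share of protein-coding genes with a peak in the body or the upstream 2000 bp (%), by quartile of gene length over all arms, for the X (red) and the autosomes (grey), with 95% Wilson intervals. The X point is below the autosomal one in every quartile, and in the shortest genes it is 6.77% against 12.1%.

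Most X genes with a peak held a single summit. Of the 508, 126 held 2 or more, 45 held 3 or more (8.86%, against 11.5% of autosomal genes with a peak) and 12 held 5 or more. Tlk (FBgn0283657, X 3720007 to 3789770, plus strand), which encodes a chromatin-assembly kinase related to plant Tousled, held the most, 10 summits with signal values of 95.1 to 431. Of these, 7 were in introns, and 6 had GAGAGA.

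Raf, the kinase that links Ras to the MAP kinase cascade, held 8 summits (110 to 385), of which 6 were in introns. Hr4 (FBgn0264562, X 1941940 to 2007956), an ecdysone-induced nuclear receptor gene, also held 8, all in introns, with signal values of 104 to 202. Its summit at X 1948863 had CAAGGTCA (signal value 140, ranks 2144 and 1623). Of the 7 Hr4 summits found in both replicates only 1 ranked higher in replicate 1.

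The bbx and waw locus held 7 summits in its 10118 bp and the 2000 bp upstream, or 57.8 per 100 kb of that sequence, 5 of them in promoters. The genes bbx and waw have the same annotated span, so their summits are the same. CG14434 held 7 (40.5 per 100 kb). NFAT, which encodes a calcium-regulated transcription factor in mammals, held 6, and so did the forkhead gene CHES-1-like. The Myc antagonist gene Mnt, CG1677, the corepressor gene Smr and the Rab-GAP gene Evi5 held 5 each. All 5 Smr summits were in introns, with signal values of 98.3 to 131.

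In a list of mostly hormone receptor and cofactor genes of the X, 6 of 10 held peaks, beside 23.1% of all X genes. These lists were chosen with earlier results in view and are described by counts alone, without matching for gene length. All 6 holders, from Met (5157 bp) to br (89738 bp), were in the longest quartile of gene length, above 4998 bp. In that quartile 40.5% of X genes held a peak. Of the members without a peak, trr (8638 bp) was also in it. After gce and Met came br, an early ecdysone gene for zinc finger proteins, with 3 intron summits that also lie inside Mur2B (strongest X 1617182, signal value 207, rank 855 in both replicates). Hr4 had a highest value of 202, Smr 131 and nej, which encodes the coactivator CBP, 96.0. The nej summit lay 369 bp upstream of a non-coding start. The genes usp and trr held none. Neither did dor and phtm, which are in the list of 10 but encode no receptor or cofactor. For usp, which encodes the partner of the ecdysone receptor, the strongest pooled entry was at rank 10961 (46.3).

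Of 9 genes of sex determination and dosage compensation, 2 held a peak (22.2%), close to the 23.1% of all X protein-coding genes. The master gene of female development, Sxl, had a promoter summit at X 7096762, at a signal value of 122, and it ranked 1884 and 3227. The splicing gene snf had 1 of 108 (ranks 1987 and 4731), whose summit was nearest to a start of its neighbour Cdk7. Neither roX RNA gene held one, and their best pooled peaks ranked 6632 (roX1, 66.4) and 11438 (roX2, 44.8). The counting genes sisA, sc, run and upd1, and mof, the acetyltransferase gene of the MSL complex, held none.

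Patterning genes held a peak in 1 of 11 cases (9.09%), beside 23.1% of all X genes. That gene was sgg, the kinase of Wnt signalling (3 summits, strongest 246 at a promoter). The head gene btd came next, with a best pooled peak of 87.6 at rank 4288, followed by sog (79.3) and oc (78.2). Among homeodomain genes 2 of 7 held peaks (28.6%), Lim1 (146, intergenic, ranks 3037 and 1177) and B-H1 (122, promoter).

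Of 14 neural genes 7 held a peak (50%, beside 23.1% of all X genes). The strongest was that of the dynamin gene shi, 42 bp upstream of its start at X 15892074 (403, ranks 80 and 348). Then came elav, the pan-neuronal RNA-binding protein gene (226), the phosphodiesterase gene dnc (191) and the potassium channel gene Sh (143). The promoter peak of N, the Notch receptor gene, was weak, at 121 with ranks of 3855 and 2029. All 7 neural holders were in the longest quartile of gene length, where 40.5% of X genes held a peak. So were Appl, para and vnd, which held none.

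Muscle and adhesion genes held peaks in 6 of 8 cases (75%, beside 23.1% of all X genes). The 4 strongest were in kirre (1005), if (464), the beta integrin gene mys (155, a promoter peak shared with fs(1)h) and the phosphatase gene flw (153, with CAAGGTCA). Among signalling genes 5 of 11 held peaks (45.5%), with Raf (385), upd3 (221), csw (159) and dlg1 (107) the highest. Among chromatin genes 5 of 7 did (71.4%), with Top1 (667), the Polycomb gene ph-p (341), fs(1)h (155) and ph-d (127). The ph-d peak ranked 10402 in replicate 1 and 721 in replicate 4. Of the muscle, signalling and chromatin holders, all but sqh (2080 bp) and upd2 (2631 bp) were in the longest quartile of gene length. In that quartile 40.5% of X genes held a peak. It also contained rst, up, Pvf1, hop and sd, which held none.

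Ribosomal protein genes of the X held a peak in 7 of 14 cases (50%), compared with 46 of 78 on the autosomes (59.0%). Over all protein-coding genes the shares were 23.1% and 26.6%. The strongest were promoter peaks of RpL22 (215), RpS28b (174), RpL17 (160) and RpS5a (154), each ranked higher in replicate 4 than in replicate 1. Odorant and gustatory receptor genes held 1 in 14 cases (7.14%), Or9a (123), compared with 4 of 105 on the autosomes (3.81%). The Or9a summit, at X 10460699, was a promoter peak of Neb-cGP that fell in the upstream 2000 bp of Or9a.

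None of the 5 motif shares differed between X and autosomal summits past the adjusted threshold. Each motif was sought on both strands within 100 bp of the summit. CAAGGTCA was found at 26 of 544 X summits (4.78%, 3.28 to 6.91) and at 3.89% of autosomal summits (odds ratio 1.24, adjusted Fisher's exact p = 0.432). All windows of 201 bp laid end to end held it in 0.545% of cases on the X and 0.490% on the autosomes. The sub-threshold peaks held it in 1.76% and 1.60%. Of the 26 X peaks, 14 were in introns and 8 at promoters. Their median signal value was 135, against 126 in the other X peaks. The strongest lay in an intron of Gs2, which encodes glutamine synthetase (X 11427511, 296, ranks 629 and 231). Others were in introns of Myc, the growth regulator (X 3378894, 188, ranks 334 and 267), of the class IIa deacetylase gene HDAC4 (254) and of Hr4, as above. The Myc summit had pooled rank 951, lower than both replicate ranks. Those are ranks of the strongest overlapping replicate peak, which neighbouring peaks can share, and Myc also held a stronger summit of 291.

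GA and CA repeats were somewhat more frequent at X summits, without passing the test. GAGAGA was found at 18.8% of X and 15.2% of autosomal summits (odds ratio 1.29), and CACACACA at 11.8% and 8.61% (1.42, both with adjusted Fisher's exact p = 0.0906). The longer repeat GAGAGAGA was found at 7.72% and 5.21% (odds ratio 1.52, adjusted Fisher's exact p = 0.0512). CACACACA passed in windows of 200 bp on each side (odds ratio 1.56, adjusted Fisher's exact p = 0.000686). It is frequent on the X as a whole, at 5.77% of end-to-end windows against 3.74% on the autosomes. For GAGAGA those shares were 7.43% and 6.88%, and for GAGAGAGA, also more frequent on the X as a whole, 1.54% and 1.04%. At intron summits GAGAGA was found in 26.6% of X and 19.1% of autosomal peaks, values that were not tested apart. Overlapping GA repeats count once per window.

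The promoter elements TATCGATA (4.96% against 3.60%) and GGTCACACT (3.31% against 3.45%) did not pass either, with adjusted Fisher's exact p = 0.242 and 1. Around all annotated starts, in windows of the same size, TATCGATA was found at 8.06% on the X and 4.93% on the autosomes. The median share of G and C in the windows was 46.8% for X and for autosomal summits alike.

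Promoter peaks of the X less often had starts on both strands within 500 bp, a comparison chosen after the values were seen. This was so for 64 of 309 (20.7%, 16.6 to 25.6) on the X and 28.6% on the autosomes (odds ratio 0.653, adjusted Fisher's exact p = 0.00563). The long arms lay between 27.0% and 30.9%. Among all annotated starts, 22.2% on the X and 24.9% on the autosomes had a start on the other strand within that distance (odds ratio 0.860, adjusted Fisher's exact p = 0.000716). Examples with starts on both strands are the peaks of gce and of Rai1 (X 16803400, signal value 357).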

How the data were processed

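The authors deposited peak lists in the builds dm6 and dm3, made from sequencing of 2 libraries with a control, per the deposited file listing. Aligner, caller, threshold and control: not given in the sources used here. No scale is stated for the signal values deposited by the authors. The −log10 q-values deposited by the authors share 1 value across the IDR list and were not used. Positions are 1-based dm6 coordinates. Sequence came from the release 6 assembly and gene models from Ensembl release 115, without transposable elements, whose arm lengths hold all dm6 peaks. A summit was classed as promoter, exon, intron or intergenic in that order. Densities used bases of known sequence. Shares were compared by two-sided Fisher's exact tests and densities by exact binomial tests, with Benjamini-Hochberg adjustment within each family (4 densities, 4 places, 3 shares of pooled peaks, 5 motifs). Python 3.11.15 and SciPy 1.17.1 were used, and the functions were tested on simulated data.

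The rule for named genes took the 20 strongest X peaks, the 10 X genes with the most summits (ties by signal value), up to 4 members of each gene list, and roX1, roX2, Sxl, usp, Hr4, br, N and kirre. Members and lists were chosen with earlier results of these data known. Other genes were named after their values were seen. The symbol phm was matched as phtm. Lists in dm3 entered only as the X share of the IDR list.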

Additional observations from a re-analysis of the deposited data

How the results depend on the processing

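Of 127 recomputed results, 107 kept their direction and their side of the threshold of 0.05, 12 passed newly, 3 no longer passed and 5 turned. The total density under other promoter windows is left out of these counts because it cannot change with them. Values are X odds ratios against the autosomes, or ratios of the X share of peaks to its share of sequence for densities, and the cause of each change was not tested. When the strongest 3960 peaks of a single replicate stood in for the IDR list, so that each replicate was left out in turn, intergenic density ran from 0.591, which passed, to 0.858, the exon share from 1.14 to 1.67, the intron share from 1.16 to 1.26, the intergenic share from 0.636 to 0.807, peaks above the median signal from 0.811 to 0.899, genes with a peak from 0.735 to 0.914 and GGTCACACT from 0.912 to 1.29. With a promoter window of 250 bp the promoter share was 0.750, the intron share 1.25 and the intergenic share 1.03. With 1000 bp, all 3 intergenic results passed: intergenic density was 0.567, the intergenic share 0.544 and the IDR share of pooled intergenic peaks 0.575. In the strongest 1980 peaks, signal stood at 1.05 and GGTCACACT at 1.04. The shorter motif AAGGTCA gave 0.961, and CACACACA within 200 bp of the summit gave 1.56. Gene bodies alone gave 0.873 for genes with a peak. Left of 21 Mb, an alternative chosen after seeing the data, the promoter share was 0.805, the intron share 1.30 and intergenic density 0.997. Density in dm3 was not run. No paired analysis was possible because there is 1 group. Read depth is unknown, so its limits on weak peaks cannot be given.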
